A study of Mus musculus with 6 samples.

Results

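The methyl-CpG readers described here are 8 genes, Mbd1, Mbd2, Mbd3, Mbd4, Zbtb33, Zbtb4, Zbtb38 and Uhrf2, whose proteins belong to the families that bind methylated DNA. They were taken by symbol, whatever their values, from a table of 24520 Ensembl genes, and all 8 were found there. The samples were 6 RNA-seq libraries of endothelial cells, the cells that line blood and lymph vessels, sorted by flow cytometry out of mouse lungs (genotype label wt, meaning wild type). The older group held 3 libraries of 18-month-old mice (Aged in the labels), the younger group 3 libraries of 8-month-old mice (mAdu in the labels), with no treatment, transgene or deletion named in either group. The study as a whole concerned DNMT3A-dependent DNA methylation and endothelial enhancers, and the question addressed here is whether the RNA of the proteins that read this mark differed between the ages. Whether each library is a different animal is not stated in the labels, and p-values therefore reflect library-to-library spread that may in part be technical.

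Cytosines followed by guanine (CpG) carry most of the DNA methylation of mammalian genomes. Writers of the DNMT family place the mark, and readers bind it and bring repressive complexes to the site. Readers of the MBD class hold a methyl-CpG-binding domain, readers of the zinc finger class (the Kaiso family) bind through zinc fingers and repress through a BTB domain, and UHRF proteins bind through an SRA domain. Uhrf2 therefore belongs to neither of the first classes. In differentiated tissues, readers are known as a link between methylated DNA and histone deacetylation.

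All 8 are protein-coding genes in GENCODE M21 on GRCm38. Mbd3 lies on chromosome 10 (80392539 to 80399550), Mbd4 on chromosome 6 (115840697 to 115853371) and Uhrf2 on chromosome 19 (30030513 to 30093722). Zbtb33 lies on chromosome X (38189793 to 38197046), Zbtb4 on chromosome 11 (69765912 to 69784023) and Zbtb38 on chromosome 9 (96682770 to 96752831).

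The promoters of these genes are themselves rich in CpG. The RefSeq promoter windows on GRCm38.p6, each 300 bases long, held between 8 and 41 CpG for the 6 members with an entry (Mbd3, Mbd4, Zbtb4, Zbtb38, Zbtb33 and Uhrf2), against a median of 7 over all 32851 windows. Zbtb38 had 3 such windows, and the one with 8 CpG was among them. The sequence upstream of the start is printed for Mbd3 and Mbd4, because they were the members with the largest differences between the ages in the values as deposited. Each is given 5′ to 3′ on the gene's minus strand with the CpG in capitals, and each was ended before any annotated exon. The Mbd3 stretch lies at chr10:80399551-80399781 and holds 13 CpG in 231 bases. The Mbd4 stretch lies at chr6:115853372-115853469, holds 8 CpG in 98 bases and stops at the first exon of Ift122, which is transcribed in the opposite direction.
Mbd3: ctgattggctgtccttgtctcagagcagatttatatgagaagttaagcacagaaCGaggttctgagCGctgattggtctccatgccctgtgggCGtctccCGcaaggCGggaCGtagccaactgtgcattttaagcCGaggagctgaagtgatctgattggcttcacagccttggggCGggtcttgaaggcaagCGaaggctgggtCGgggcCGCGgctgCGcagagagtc
Mbd4: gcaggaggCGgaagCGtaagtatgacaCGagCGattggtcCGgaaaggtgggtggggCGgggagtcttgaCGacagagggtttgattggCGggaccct

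Kaiso binds runs of methylated CGCG and, without methylation, the letters TCCTGCNA. Both were searched on both strands of the full 300-base windows. CGCG occurred in 38.0% of all windows and was found 2 times in the Mbd3 window, 2 times in that of Mbd4, 2 times in that of Zbtb33 and 4 times in that of Uhrf2, while the Zbtb4 window had 0 and the 3 Zbtb38 windows 0, 4 and 5. TCCTGCNA occurred in 4.96% of all windows and, among the members, in the Mbd3 window alone, 1 time. These are matches of letters. Methylation and binding at these promoters were not measured in the data used here.

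The values are TPM (a measure of transcripts), a level per transcript length relative to the sum of a library, so levels of different genes can be set side by side. The sums were 869315 to 876126 TPM per library over the genes listed, the depth is unknown, and no counting error can be given. All 10 endothelial markers were present, with a summed level of 12353 to 13165 TPM at 18 months and 13351 to 14713 TPM at 8 months. This sum was lower at 18 months without overlap. Cdh5, Kdr, Cldn5 and Esam were each lower without overlap, and the other endothelial markers overlapped between the ages. Markers of other lung cells were present too, and the sums of 2 kinds also separated the ages. The 9 fibroblast, smooth muscle and pericyte markers summed to 26.9 to 33.5 TPM at 18 months and 47.4 to 71.6 TPM at 8 months, and the 7 markers of dividing cells to 19.7 to 27.2 TPM and 6.27 to 8.38 TPM. The part of these cells in the differences between the ages was not tested. Among the dividing-cell markers, Birc5 overlapped between the ages (3.89 to 6.26 TPM at 18 months, 3.75 to 3.97 TPM at 8 months). Mki67 was near 0 in the first 18-month library, as in all 8-month libraries. Top2a, Ccnb1, Ccnb2, Kif20a and Cdk1 were each higher at 18 months without overlap. The 9 epithelial markers summed to 9467 to 19232 TPM at 18 months and 10981 to 20149 TPM at 8 months, mostly Scgb1a1 of airway club cells and the surfactant gene Sftpc, while the epithelial surface marker Epcam lay between 0.292 and 1.38 TPM. The third 8-month library had the highest sums of epithelial, macrophage and monocyte (1655 TPM), lymphocyte (45.7 TPM) and erythroid (1843 TPM) markers of all 6 libraries. The macrophage and monocyte sum was mostly Lyz2 (1542 TPM in that library). Ptprc, Mrc1, Marco and Itgam were also highest there, while Adgre1, Csf1r, Cd68, Cd14 and Tyrobp were highest in an 18-month library. Scgb1a1 was highest in the first 18-month library (12297 TPM). In bulk RNA, fewer cells of a type and less RNA per cell cannot be told apart.

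None of the 8 readers differed between the ages past the test. The test was limma's moderated test on log2(TPM + 1), over the 12748 genes whose mean reached 1 TPM, 2-sided, with Benjamini-Hochberg adjustment and a threshold of 0.05. Of all tested genes 3 passed, which is 0.0235% (0.00784% higher and 0.0157% lower at 18 months), so a count of 0 among 8 members lies near the background. The unadjusted p was under 0.05 for 0 members as well, against 13.4% of all genes (3.45% higher and 9.99% lower). Mbd4 came under it with median-of-ratios scaling (limma adjusted p = 0.309) and Mbd3 without the third 8-month library (limma adjusted p = 0.281), among other alternatives. The excess of lower genes depended on the scaling. As deposited, 440 genes were higher and 1274 lower by unadjusted p, which became 756 and 881 with median-of-ratios scaling and 862 and 711 with a correction for base composition and length. By sign, 3 members were higher and 5 lower at 18 months, where 4303 of all tested genes were higher and 8445 lower. The median over the members, in log2, was -0.12 against -0.08 for all genes tested. With median-of-ratios scaling the members' median was -0.023 against 0.0089 for all genes, and with library weights -0.031 against -0.078. It was -0.057 against -0.093 without the third 8-month library, and 0.0078 against 0.017 with the correction for base composition and length. The members' median thus lay below that of all genes under some alternatives and above it under others. The members' adjusted p lay between 0.38 and 0.993.

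With all 6 libraries and the values as deposited, Mbd3 and Mbd4 had the largest differences, in opposite directions. This order did not hold throughout, since Mbd1 (0.17 in log2) exceeded Mbd3 (-0.13) in size with the correction for base composition and length, and Zbtb38 (-0.35) exceeded Mbd3 (-0.34) and Mbd4 (0.28) without the first 8-month library. Mbd3 encodes a subunit of NuRD, a complex that joins nucleosome remodelling to histone deacetylation, and in mammals its domain has largely lost the preference for methylated CpG. Mbd3 read 7.58, 8.50 and 9.13 TPM in the older libraries and 12.6, 13.5 and 8.78 TPM in the younger. The first and second 8-month libraries lay above all others, and the third lay within the 18-month range. The older group averaged 8.40 ± 0.776 TPM and the younger 11.6 ± 2.50 TPM (SD, n = 3), which is 1.38-fold lower at 18 months. On the log2 scale the difference was -0.41 (95% interval -0.82 to 0.0074, limma adjusted p = 0.381).

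Mbd4 encodes a DNA glycosylase that removes the thymine left when a methylated cytosine is deaminated. It read 10.4, 11.5 and 10.5 TPM in the older libraries and 6.82, 7.47 and 10.3 TPM in the younger. All 18-month values lay above all 8-month values, though the third 8-month library came close to them. The older group averaged 10.8 ± 0.619 TPM and the younger 8.18 ± 1.83 TPM (SD, n = 3), which is 1.32-fold higher at 18 months. In log2 the ages differed by 0.38 (95% interval -0.0059 to 0.77, limma adjusted p = 0.38). The exons of Mbd4 share 264 bases with the antisense gene Gm44206, not analysed here, and the library kit keeps no strand information. Mbd4 was the 1 member whose groups did not overlap, where 18.7% of all tested genes did not overlap (4.48% higher and 14.2% lower at 18 months).

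Both differences were larger without the third 8-month library. Leaving it out, the log2 difference was -0.58 for Mbd3 (limma adjusted p = 0.281) and 0.54 for Mbd4 (limma adjusted p = 0.303). This is the library with the highest sums of epithelial, macrophage (mostly Lyz2) and erythroid markers. The first 18-month library came close in epithelial markers (19232 against 20149 TPM). It was lower in macrophage (1400 against 1655 TPM) and erythroid markers (717 against 1843 TPM). The part of those markers in the Mbd3 and Mbd4 levels of the third 8-month library was not tested. Mbd3 transcripts are rich in guanine and cytosine, at 61.6% against a median of 49.8% for the tested genes, and those of Mbd4 are at 45.4%. After the correction for base composition and transcript length the log2 difference was -0.13 for Mbd3 (limma adjusted p = 0.817) and 0.45 for Mbd4 (limma adjusted p = 0.357).

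**Figure D1:**
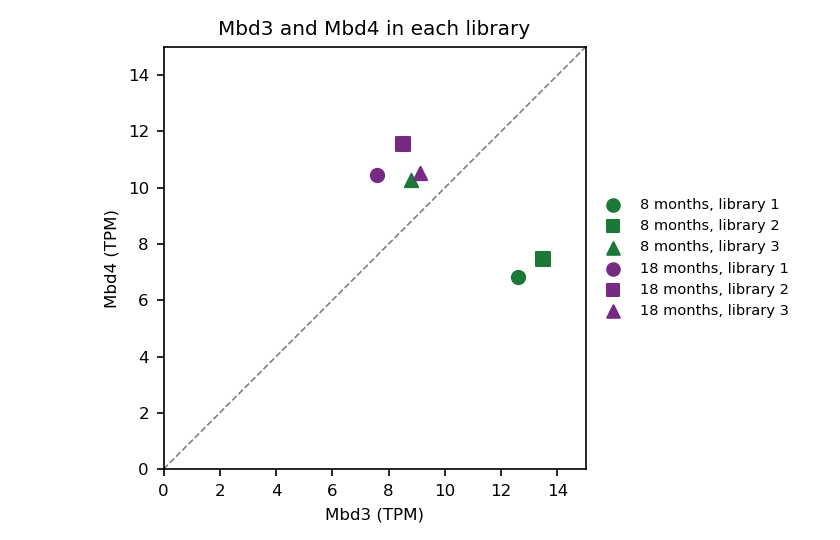
Level of Mbd4 (TPM, vertical axis) against that of Mbd3 (TPM, horizontal axis), 1 point per library, coloured by age and shaped by library number, with the line of equal levels dashed. The 3 libraries of 18 months and the third 8-month library lie above the line, and the first and second 8-month libraries lie below it.

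The balance of the pair within a library does not depend on the scaling between libraries. The ratio of Mbd3 to Mbd4 was 0.727, 0.736 and 0.868 at 18 months and 1.85, 1.81 and 0.856 at 8 months. Mbd4 was thus the higher of the pair in 3 of 3 libraries at 18 months and in 1 of 3 at 8 months. This ratio was chosen after its values were seen and carries no test. The correction for base composition and length, which changed the Mbd3 difference, was not applied to it. The profiles of Mbd3 and Mbd4 over the 6 libraries were the farthest apart of all pairs of members. Their root-mean-square difference was 0.52 in centred log2(TPM + 1). This rests on the same values as their opposite differences and is no separate observation. The closest pair was Zbtb33 and Zbtb4, at 0.11, followed by Mbd2 and Uhrf2, at 0.12. At the low level of Zbtb33 the added 1 TPM weighs on its profile. Its log2 difference between the ages was -0.19 with 1 TPM added and -0.28 with 0.1 TPM added.

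**Figure D2:**
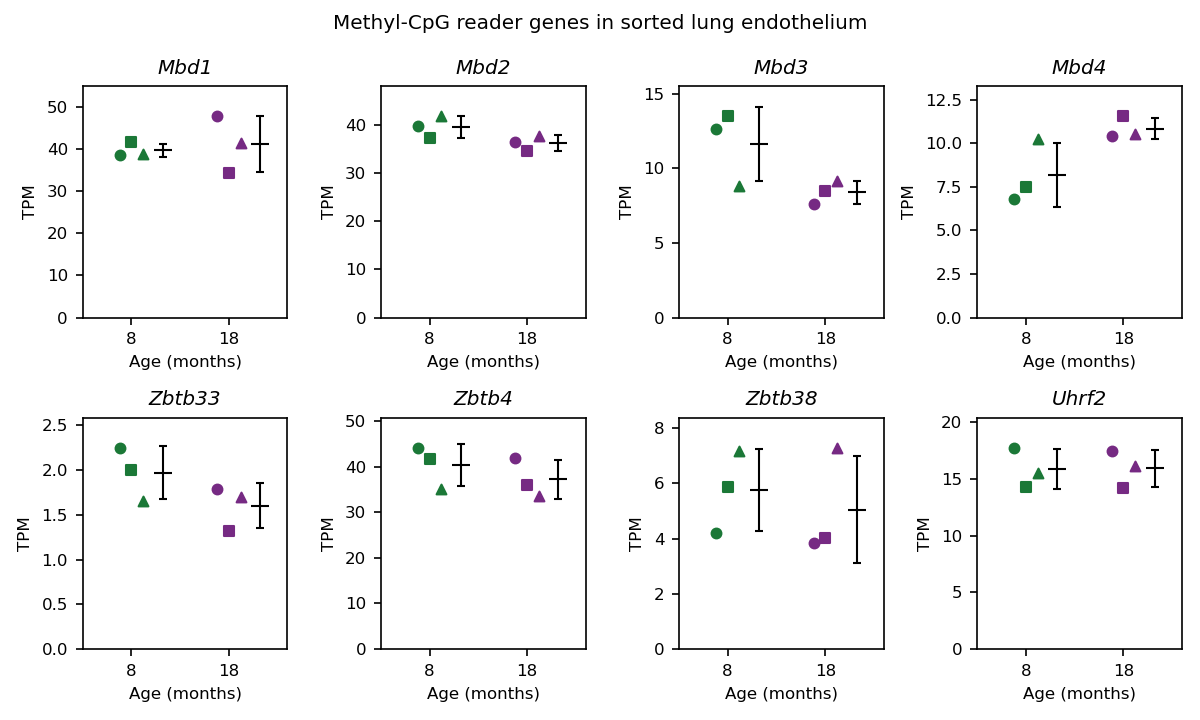
Levels of the 8 reader genes in TPM (vertical axes, each from 0) by age in months, 1 point per library (circle, square and triangle for libraries 1, 2 and 3), with the mean and SD of 3 libraries beside the points. Mbd4 is the member in which the ages do not overlap, and Mbd3 is separated except for the third 8-month library at 8.78 TPM.

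Mbd1 and Mbd2, on chromosome 18 (74267605 to 74282732 and 70568189 to 70626131), were among the 3 most abundant readers, and neither passed the test. Mbd1, a repressor that brings histone methyltransferases to methylated DNA, read 47.8, 34.4 and 41.5 TPM in the older libraries and 38.7, 41.6 and 39.0 TPM in the younger. Its highest and its lowest value both came from the 18-month group, so the groups overlapped. The fitted log2 difference was 0.04 (95% interval -0.27 to 0.35, limma adjusted p = 0.934), and it was -0.07 without the first 18-month library.

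Mbd2 recruits NuRD to methylated promoters. It read 36.4, 34.5 and 37.8 TPM in the older libraries and 39.7, 37.2 and 41.8 TPM in the younger. It had the smallest spread of the members, with 1.21-fold between its highest and lowest library. The means were 36.2 ± 1.64 and 39.6 ± 2.30 TPM (SD, n = 3), and the groups overlapped through the third 18-month and the second 8-month library. The log2 difference was -0.12 (95% interval -0.35 to 0.10, limma adjusted p = 0.649).

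MBD2 and MBD3 take the same place in NuRD and form separate complexes, so their ratio within a library was compared. Mbd2 RNA exceeded Mbd3 RNA 4.76-fold, 4.02-fold and 4.10-fold in the 18-month libraries and 3.13-fold, 2.74-fold and 4.72-fold in the 8-month libraries, with 0.1 TPM added to each level. Mbd2 was the higher in 6 of 6 libraries. The mean log2 ratio was 2.10 ± 0.13 at 18 months and 1.78 ± 0.41 at 8 months (SD, n = 3), a difference of 0.32 (exact permutation test, 2-sided, p = 0.3). The smallest p that 3 libraries against 3 allow is 0.1, so this design cannot pass the threshold. The difference was 0.16 without the second 8-month library and 0.55 without the third. The correction for base composition and length was not applied to this ratio. With it the log2 difference between the ages moved from -0.41 to -0.13 for Mbd3 and from -0.12 to -0.03 for Mbd2.

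The zinc finger readers were each lower by sign at 18 months (3 of 3, where 8445 of 12748 tested genes were lower), with overlapping groups and none past the test. Zbtb4, which binds a methylated CpG within a longer motif, read 42.0, 35.9 and 33.7 TPM in the older libraries and 44.1, 41.6 and 35.1 TPM in the younger. Both ages covered nearly the same range. Its log2 difference was -0.11 (95% interval -0.41 to 0.19, limma adjusted p = 0.772). It was -0.045 without the third 18-month or the first 8-month library and -0.20 without the first 18-month or the third 8-month library, and it turned to 0.12 with the correction for base composition and length.

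Zbtb38 was the most variable reader. It read 3.84, 4.02 and 7.29 TPM in the older libraries and 4.22, 5.85 and 7.19 TPM in the younger, 1.90-fold between the extremes. The third library of each age was the highest of its group, and the ages covered nearly the same range. On the log2 scale the difference was -0.18 (95% interval -0.79 to 0.43, limma adjusted p = 0.825). It was -0.43 without the third 18-month library, -0.35 without the first 8-month library, and 0.12 with library weights estimated by limma.

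Zbtb33, which encodes Kaiso, was the least abundant reader. It read 1.79, 1.31 and 1.70 TPM in the older libraries and 2.25, 2.004 and 1.66 TPM in the younger. The first and second 8-month libraries were the highest, and the third lay within the 18-month range, as for Mbd3. In log2 the ages differed by -0.19 (95% interval -0.62 to 0.24, limma adjusted p = 0.721), with -0.11 when the second 18-month library and -0.12 when the first 8-month library was left out. Its exons share 474 bases with exons of Tmem255a on the opposite strand (chromosome X, 38196573 to 38252439, GRCm38), and 8.67% of its 31-base sequences occur there. Tmem255a itself averaged 2.46 TPM in the older and 4.31 TPM in the younger libraries. Reads of the overlap cannot be told apart, since strand was not kept.

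Uhrf2, the SRA-domain reader known for binding hydroxymethylated and hemimethylated CpG, differed between the ages by less than the spread of its libraries. It read 17.5, 14.2 and 16.1 TPM in the older libraries and 17.8, 14.3 and 15.6 TPM in the younger. The fitted log2 difference was 0.01 (95% interval -0.31 to 0.32, limma adjusted p = 0.993). Its paralog Uhrf1, which brings DNMT1 to replicating DNA, read 4.47, 2.24 and 2.38 TPM in the older libraries and 1.43, 1.53 and 0.997 TPM in the younger, with groups that did not overlap. Its log2 difference was 0.76 (95% interval 0.18 to 1.34, limma adjusted p = 0.248). Markers of dividing cells were higher at 18 months as well (19.7 to 27.2 TPM summed, against 6.27 to 8.38 TPM), and their part in Uhrf1 was not tested.

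Uhrf2 RNA exceeded Uhrf1 RNA in 6 of 6 libraries, by 3.85-fold, 6.11-fold and 6.55-fold at 18 months and by 11.6-fold, 8.84-fold and 14.3-fold at 8 months, with 0.1 TPM added to each level. All 18-month ratios lay below all 8-month ratios. The mean log2 ratio was 2.42 ± 0.42 and 3.51 ± 0.35 (SD, n = 3), a difference of -1.08 (exact permutation test, 2-sided, p = 0.1, the smallest this design allows). The ages overlapped in Uhrf2 and not in Uhrf1, and the Uhrf1 values at 8 months lie near the filter of 1 TPM.

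**Figure D3:**
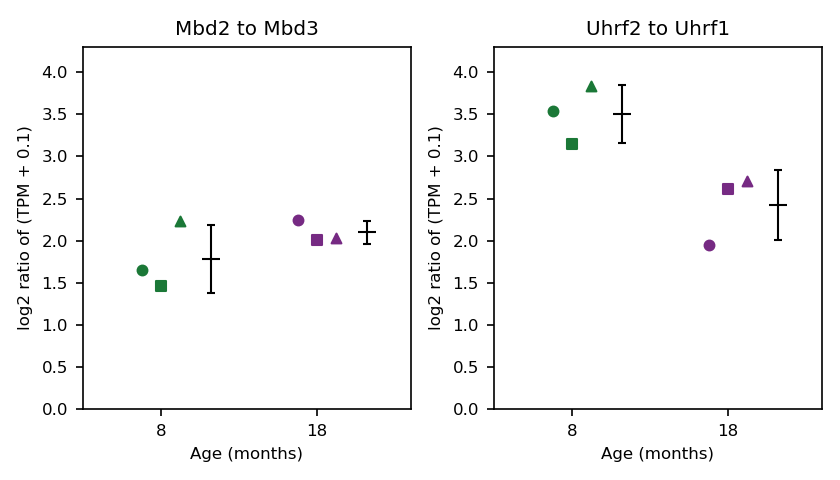
Log2 ratio of levels within a library, each with 0.1 TPM added, for Mbd2 over Mbd3 (left) and Uhrf2 over Uhrf1 (right) by age in months, 1 point per library (circle, square and triangle for libraries 1, 2 and 3), with the mean and SD of 3 libraries beside the points. The ages overlap for Mbd2 over Mbd3, and all 18-month points lie below all 8-month points for Uhrf2 over Uhrf1.

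Over all 6 libraries the readers fell into steps of abundance. Mbd1 (40.5 ± 4.44 TPM, SD, n = 6), Zbtb4 (38.7 ± 4.34 TPM) and Mbd2 (37.9 ± 2.56 TPM) were at the top, with overlapping ranges, and each was above the next in 4 of 6 libraries. They exceeded 72.7% to 74.1% of the tested genes. Uhrf2 followed at 15.9 ± 1.52 TPM, below the top group in 6 of 6 libraries. Mbd3 (10.0 ± 2.42 TPM) and Mbd4 (9.51 ± 1.90 TPM) came next and did not differ beyond their spread, since Mbd3 was the higher in 2 of 6 libraries. Zbtb38 (5.40 ± 1.59 TPM) lay below Mbd4 in 6 of 6 libraries although their ranges overlapped, and Zbtb33 (1.79 ± 0.319 TPM) was lowest in 6 of 6.

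The summed level of all 8 readers was 167.4, 144.5 and 157.6 TPM in the older libraries and 166.2, 163.5 and 159.3 TPM in the younger. The groups overlapped, and the second 18-month library was lowest. MBD genes made up 58.9% to 62.7% of this sum in each library and zinc finger genes 27.1% to 30.4%.

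**Figure D4:**
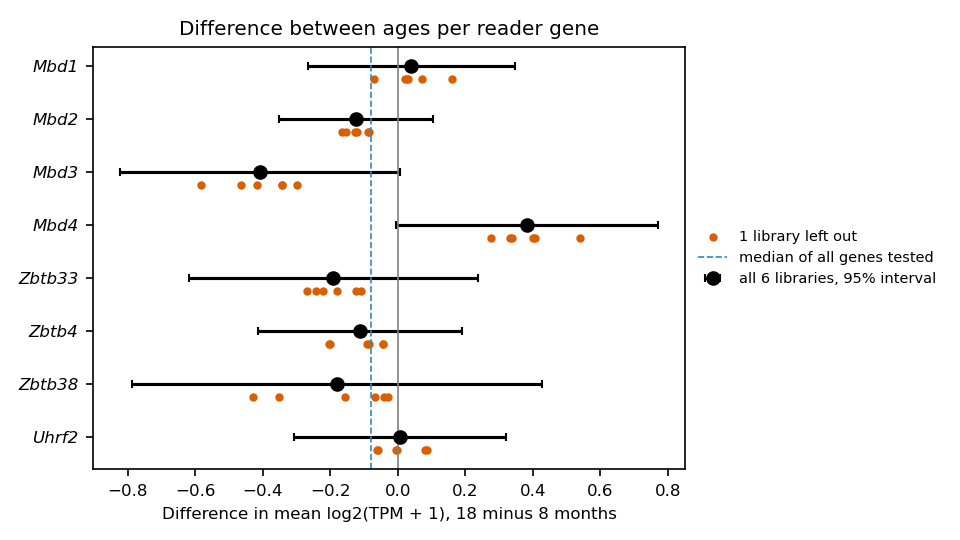
Difference in mean log2(TPM + 1) between 18 and 8 months (horizontal axis) for each reader gene, with the 95% interval from limma (black) and the differences with each library left out in turn (orange), the dashed line marking the median of all tested genes. All 8 intervals include 0, and those of Mbd3 and Mbd4 reach it only at their ends.

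For each reader the protein-coding gene with the nearest profile was sought among 11681 candidates, by the root-mean-square difference of centred log2(TPM + 1) over the 6 libraries. With so many candidates and 6 libraries a close profile is easily found. Morc3 was nearest to Mbd1 (0.028), Ica1 to Mbd2 (0.015), Gtf2h5 to Mbd3 (0.082) and Gm8909 to Mbd4 (0.053). Strn was nearest to Zbtb33 (0.032), Rchy1 to Zbtb4 (0.024), Cacnb2 to Zbtb38 (0.089) and Smurf2 to Uhrf2 (0.035). Mbd3 and Zbtb38 had the most distant nearest genes. Gtf2h5, a subunit of the transcription and repair factor TFIIH, showed the pattern of Mbd3, with 36.6, 45.5 and 41.7 TPM in the older libraries and 54.9, 60.8 and 43.2 TPM in the younger.

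The partners of the readers were compared in the same fit. Of 58 distinct genes in 6 lists, 53 were tested and 0 passed, against 0.0235% of all tested genes. An unadjusted p under 0.05 was reached by 2 higher and 2 lower partner genes of 53, against 13.4% of all tested genes (3.45% higher and 9.99% lower). The groups did not overlap in 4 higher and 6 lower partner genes, together 10 of 53, where 18.7% of all tested genes did not overlap.

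NuRD subunits had a median log2 difference of -0.12 over 11 of 13 genes tested, against -0.08 for all tested genes. By sign 3 were higher and 8 lower, where over all tested genes 4303 were higher and 8445 lower. Leaving out the second 18-month library gave -0.065. The subunit Mta2 read 58.8, 44.5 and 50.6 TPM in the older libraries and 59.9, 80.4 and 59.8 TPM in the younger, so the groups were apart but close (limma adjusted p = 0.354). The histone-binding subunit Rbbp7 lay at 74.5, 55.0 and 63.2 TPM against 75.0, 81.3 and 77.0 TPM (limma adjusted p = 0.381), again apart by a narrow margin. Gatad2b had the lowest log2 difference of the tested partner genes (-0.77, limma adjusted p = 0.465), with overlapping groups. Mta1 (at most 0.69 TPM) and Chd5 (at most 0.0385 TPM) were below the filter. Among the corepressors of the zinc finger readers, 10 of 11 genes were tested, with a median of -0.12, 2 higher and 8 lower by sign. Leaving out 18-month libraries gave -0.052 (the second) and -0.20 (the first). The corepressor Ctbp1 had means of 25.6 TPM in the older and 30.9 TPM in the younger libraries (limma adjusted p = 0.42), and the Sin3 scaffold Sin3b 47.4 and 53.7 TPM (limma adjusted p = 0.484), where the groups of Sin3b did not overlap.

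Partners of MBD1 and heterochromatin genes had a median of -0.13 over 11 of 12 genes, with 5 higher and 6 lower by sign. This median varied with single libraries, at -0.016 without the second and -0.063 without the third 18-month library, -0.036 without the second 8-month library and -0.22 without the first 18-month library. Chaf1b, a histone chaperone of replicating DNA, read 3.74, 4.99 and 6.36 TPM in the older libraries and 3.47, 2.63 and 2.79 TPM in the younger (limma adjusted p = 0.275), without overlap. The dividing-cell markers were higher at 18 months too, and their part in Chaf1b was not tested. Setdb1, a histone H3 lysine methyltransferase that is itself an MBD-domain protein, had means of 21.6 and 25.9 TPM (limma adjusted p = 0.513). It also belongs to the other MBD-domain genes, which had a median of -0.15 over 6 of 6 genes (-0.23 without the first 8-month library), and of which Baz2a, a silencer of ribosomal RNA genes, had means of 20.3 and 22.7 TPM (limma adjusted p = 0.649). The medians of these lists and of the NuRD and corepressor lists turned positive, to between 0.01 and 0.06, with the correction for base composition and length. The median of all tested genes moved from -0.08 to 0.017 with the same correction. With median-of-ratios scaling the medians of these 4 lists were -0.061 to -0.025, against 0.0089 for all tested genes.

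The repair genes that act beside MBD4 had a median of 0.03 over 11 of 12 genes, against -0.08 for all tested genes, with 6 higher and 5 lower by sign. This median was -0.026 without the first 18-month library, -0.11 without the first 8-month library and -0.00032 with library weights. Xrcc1, the scaffold of base excision repair, read 25.2, 17.5 and 20.9 TPM in the older libraries and 25.2, 32.5 and 32.2 TPM in the younger, the opposite direction to Mbd4 (log2 difference -0.49, limma adjusted p = 0.256). The glycosylase Nthl1 lay at 28.8, 34.4 and 30.8 TPM against 27.8, 25.4 and 29.0 TPM, with overlapping groups (limma adjusted p = 0.53). Genes of maintenance methylation had a median of 0.15 over 5 of 5 genes. Dnmt1, the maintenance methyltransferase itself, was at -0.13 (means 40.2 and 43.5 TPM, limma adjusted p = 0.766), with overlapping groups. Besides Uhrf1, the replication clamp Pcna, with means of 118.2 and 106.2 TPM (limma adjusted p = 0.522), and the remodeller Hells, with 2.43 and 1.99 TPM (limma adjusted p = 0.661), were above their 8-month values in every 18-month library, where 4.48% of all tested genes were higher without overlap. The dividing-cell markers, at 19.7 to 27.2 TPM against 6.27 to 8.38 TPM, were higher at 18 months too, and their part in this list was not tested.

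**Figure D5:**
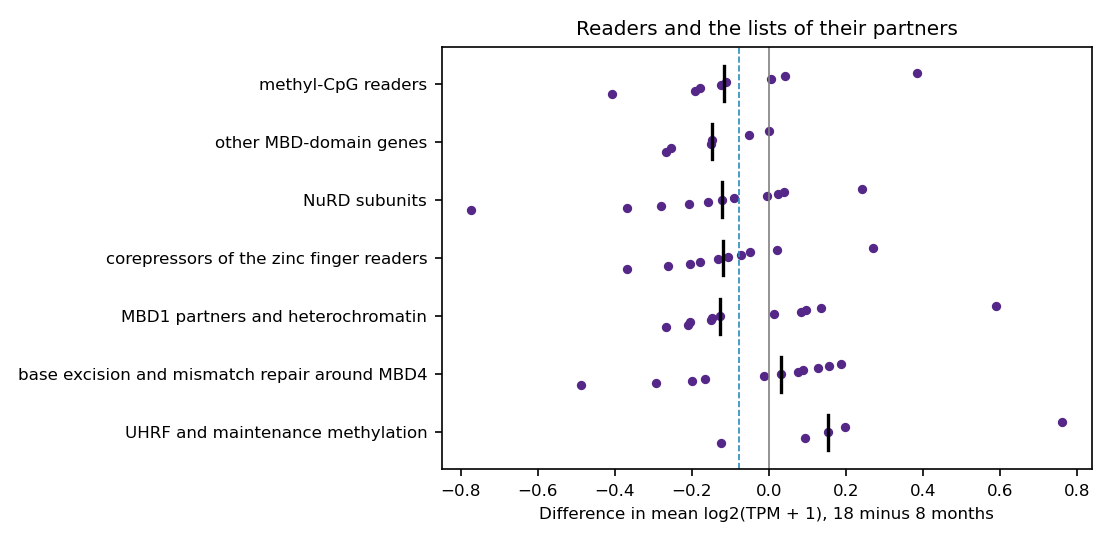
Difference in mean log2(TPM + 1) between 18 and 8 months (horizontal axis) for each tested gene of the readers and of 6 lists of partner genes, 1 point per gene, with the list median as a black bar and the median of all tested genes as a dashed line. The points of most lists spread on both sides of 0. Uhrf1 is the rightmost point, at 0.76, and the NuRD subunit Gatad2b the leftmost, at -0.77.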

How the data were processed

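Per the labels' protocols, RNA from sorted cells was isolated with the PicoPure kit, 10 ng went into each SMARTer Ultra Low library, and paired reads of 100 bp were taken. The authors deposited TPM per Ensembl gene, not pooled over libraries. kallisto and the build mm10 are named in the submitters' processing notes. The kallisto version, transcript set and filters were not given in the sources used here. TPM keep no depth, so precision is judged from the spread between libraries.

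Symbols, positions, base composition and exon overlaps came from GENCODE M21 (GRCm38, called mm10), in which 24299 identifiers were found. The promoter table is from RefSeq (GRCm38.p6) and gave entries for 6 of the 8 members. Of the 31-base sequences of a member's transcripts, under 10% occurred in other genes (highest 8.67%, Zbtb33, then 6.18%, Mbd4). Computations used R 4.3.3 and limma 3.58.1, with an intensity trend and age as the sole term. The test was tested on simulated data. All members were named, with the 2 partner genes of smallest unadjusted p per list and the nearest profile per member. Genes beside these (Chd5, Mta1, Gatad2b, Hells, Dnmt1) were chosen after their values were seen. Members and lists were chosen with earlier results of these data known. Alternatives were other pseudocounts, filters, scalings and variance models, library weights, a replicate block, a loess correction for base composition and length, and each library left out.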

Additional observations from a re-analysis of the deposited data

How the results depend on the processing

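Under the 16 alternatives (15 for Zbtb33, which fell below a mean of 5 TPM) 0 of the 8 readers and 0 of the partner genes passed. The direction held in each alternative for Mbd2, Mbd3, Mbd4 and Zbtb33. Mbd3 ranged from -0.58 to -0.13 and Mbd4 from 0.28 to 0.54 on the log2 scale. Mbd1 ranged from -0.071, without the first 18-month library, to 0.16 with a library left out, and reached 0.17 with the correction for base composition and length. Zbtb4 reversed to 0.12 with the correction for base composition and length, and Zbtb38 to 0.12 with library weights. Uhrf2, near 0, ranged from -0.061 to 0.085 with a library left out, and reached 0.10 with quantile normalization. Uhrf2 was below 0 when the older group lost its first (-0.059) or the third (-0.0032) library or the younger group its second (-0.061) or the third (-0.0050). The causes were not tested. The 3 calls over all genes became 0 by limma with no filter (669 higher and 1534 lower at an unadjusted p under 0.05), 16 (8 higher, 8 lower) with median-of-ratios scaling, 16 (9 higher, 7 lower) with quantile normalization and 94 (34 higher, 60 lower) with library weights, and 0 to 2 with a library left out. The split at that p, 440 higher and 1274 lower as deposited, was 756 and 881 with median-of-ratios scaling, 751 and 979 with quantile normalization and 862 and 711 with the correction for base composition and length. The replicate block gave 0 calls by limma (422 higher and 1023 lower at an unadjusted p under 0.05). Same-numbered libraries deviated together by correlations of -0.012, -0.090 and 0.057, where differently numbered ones gave -0.069 to 0.083. Of the 6 libraries, 2 correlated best with their own number. These values gave no sign of pairing by number, though with 3 libraries per age they cannot exclude it. The block left the ratio differences at 0.32 for Mbd2 to Mbd3 and -1.08 for Uhrf2 to Uhrf1. With a pseudocount of 1 these were 0.28 and -0.75, and with a library left out 0.16 to 0.55 and -1.26 to -0.84. The correction for base composition and length was not applied to these ratios. The unknown depth limits what can be said of low genes such as Zbtb33 and Uhrf1.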
